A study of Mus musculus with 12 samples.

Results

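De novo lipogenesis was followed in immortalized murine brown adipocytes through 10 genes, picked by name as members of the pathway. They were the enzyme genes Acly, Acaca, Acacb, Fasn, Elovl6, Scd1 and Scd2, the gene of the lipogenic protein Thrsp, and the transcription factor genes Srebf1 and Mlxipl. All 10 were found among the 48321 genes listed and all 10 were among the 11998 genes with enough counts to be tested. RNAseq was available for 12 libraries, 3 in each of 4 groups. All groups derived from newborn wild-type C57BL/6J brown preadipocytes of the interscapular depot, immortalized with the SV40 large T antigen. Cells carried either the empty lentiviral vector pLEX or pLEX with tSema4B, a truncated Semaphorin 4B fused to a Flag tag, and were selected with puromycin. They were differentiated for 8 days, with an induction cocktail of rosiglitazone, dexamethasone, IBMX, insulin and T3 followed by insulin and T3. Serum-free medium with BSA was then given for 6 h, either alone (unstimulated) or with 2 μM norepinephrine (NE). A single line was made per construct and libraries of a group are labelled technical replicates, so the p-values measure the spread between these libraries and not between transductions or animals.

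De novo lipogenesis turns carbon from glucose into fatty acids. Citrate exported from mitochondria is cleaved to acetyl-CoA by Acly, carboxylated to malonyl-CoA by the acetyl-CoA carboxylases Acaca and Acacb, and built into palmitate by Fasn. Elovl6 then lengthens palmitate and the desaturases Scd1 and Scd2 add a double bond. SREBP1, encoded by Srebf1, carries the insulin signal to these genes, and ChREBP, encoded by Mlxipl, carries the glucose signal. Brown adipose tissue is a lipogenic tissue in which newly made fatty acids refill the lipid droplets that adrenergic stimulation empties.

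The promoters of the members are shown because SREBP1, ChREBP and their partner NF-Y are known to act through short motifs close to the start of lipogenic genes. RefSeq windows of 250 bases before to 50 bases after a start (GRCm38.p6) were found for 8 of the 10 members, with 11 windows in all. Scd1 and Scd2 had none. Printed here are the 250 bases before the start of Fasn, the last enzyme of palmitate synthesis, on the minus strand (chr11:120824548-120824797), of the most downstream of the 3 Srebf1 starts on the minus strand (chr11:60210472-60210721), and of both Mlxipl starts on the plus strand, the first at chr5:135089640-135089889 and the internal one at chr5:135106641-135106890. Each runs 5′ to 3′ along the strand of its gene, and capitals mark the NF-Y motif CCAAT, the E-box CACGTG or the sterol element form TCACNCCAC on either strand.
Fasn: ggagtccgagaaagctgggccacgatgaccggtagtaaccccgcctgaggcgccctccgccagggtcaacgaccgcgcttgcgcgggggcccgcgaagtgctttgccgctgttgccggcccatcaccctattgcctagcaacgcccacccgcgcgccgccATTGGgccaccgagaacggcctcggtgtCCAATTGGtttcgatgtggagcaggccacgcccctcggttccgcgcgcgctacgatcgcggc
Srebf1, downstream start: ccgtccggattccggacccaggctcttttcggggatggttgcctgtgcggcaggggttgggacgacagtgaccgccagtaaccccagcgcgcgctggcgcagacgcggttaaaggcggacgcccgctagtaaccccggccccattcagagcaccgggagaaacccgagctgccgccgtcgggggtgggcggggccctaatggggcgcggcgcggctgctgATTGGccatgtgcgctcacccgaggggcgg
Mlxipl, first start: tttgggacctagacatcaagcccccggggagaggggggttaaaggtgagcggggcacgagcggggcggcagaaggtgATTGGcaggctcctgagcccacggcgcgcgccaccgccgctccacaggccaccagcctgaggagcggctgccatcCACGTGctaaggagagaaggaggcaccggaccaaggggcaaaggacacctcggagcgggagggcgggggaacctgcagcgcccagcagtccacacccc
Mlxipl, internal start: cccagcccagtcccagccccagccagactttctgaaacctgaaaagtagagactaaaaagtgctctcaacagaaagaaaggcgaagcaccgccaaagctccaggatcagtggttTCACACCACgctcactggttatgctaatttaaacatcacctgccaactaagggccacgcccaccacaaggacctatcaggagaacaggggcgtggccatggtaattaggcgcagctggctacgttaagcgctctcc

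The NF-Y motif CCAAT lay in 7 of the 11 windows, those of Acacb, Acly, Fasn, Thrsp, 1 of the Mlxipl windows and 2 of the Srebf1 windows, and in 37.4% of all 32851 mouse windows of this length. Fasn held 3 copies at positions -90, -62 and -59 from the start, the last pair overlapping on opposite strands. Thrsp held 2 copies, at -79 and -52. All positions are from the RefSeq starts. Those of Thrsp, Acaca, Acacb and Elovl6 lie inside the GENCODE gene, as do the internal Mlxipl start and every Srebf1 start but the most upstream. The matches in the windows of Thrsp, Acacb, the internal Mlxipl start and these Srebf1 starts are therefore downstream of the GENCODE start. The E-box CACGTG, the core read by ChREBP with its partner Mlx and by USF proteins, was found in the window of the first Mlxipl start alone, at -98, against 7.15% of all windows. The sterol regulatory element form TCACNCCAC was found only in the internal Mlxipl window, at -136, against 1.24% of all windows. The Sp1 motif GGGCGG lay in 4 of the 11 windows (Acly, Mlxipl and Srebf1) and in 35.7% of all windows. The longer sterol element, the full carbohydrate response element and the LXR element searched by name were in none of the 11 windows, and in 0.234%, 0.0% and 0.0152% of all windows. A match is a match of letters only. Reads were counted per gene, so the 2 Mlxipl starts and the 3 Srebf1 starts were not separated in what follows.

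Depth and identity of the libraries were examined first. Reads counted on genes lay between 2000780 and 5409583 per library, with group medians of 2883312 in unstimulated vector, 2217652 in unstimulated tSema4B, 4927256 in NE-treated vector and 2776307 in NE-treated tSema4B cells, and 1 read was worth 0.593 to 1.55 normalized read counts. Sema4b, whose reads here include both the mouse gene and any matching part of the construct, was at 116800 ± 6692 normalized read counts in unstimulated vector and 281500 ± 31110 in unstimulated tSema4B cells (SD, n = 3). After NE it was at 74270 ± 8219 in vector and 234300 ± 32370 in tSema4B cells, so no tSema4B library overlapped a vector library. Sema4b took 3.58 to 4.02% of the reads on genes in unstimulated vector and 2.04 to 2.57% in NE-treated vector libraries, against 8.53 to 10.2% and 7.01 to 8.88% in tSema4B libraries. Markers of the adipocyte, such as Adipoq, Fabp4 and Pparg, were detected in every group. In tSema4B cells 7.39% of all tested genes fell without stimulation and 11.2% after NE, and all 10 adipocyte markers fell in both conditions. Their summed level was 35000 to 39290 normalized read counts in unstimulated vector, 6056 to 8658 in unstimulated tSema4B, 48860 to 61310 in NE-treated vector and 10190 to 11720 in NE-treated tSema4B libraries. Most of the sum in vector cells was Fabp4, at 24030 ± 974.5 without stimulation and 40900 ± 5624 after NE (SD, n = 3). With NE in vector cells 1 of the 10 markers rose (Fabp4) and 3 fell (Plin1, Pparg and Dgat2). Of all tested genes 6.82% rose and 4.78% fell there, and the markers' median log2 fold change was 0.01. With NE in tSema4B cells 3 markers rose (Fabp4, Cidec and Lpl) and 0 fell, with a median of 0.27. Of all tested genes 3.68% rose and 2.58% fell there. The summed level of 12 preadipocyte and fibroblast markers was higher in tSema4B than in vector cells, with 16800 to 17430, 31520 to 35830, 13910 to 15990 and 29580 to 31420 in the same order. Most of this sum was collagen. In unstimulated vector and tSema4B cells Col1a1 had means of 5737 and 11720 and Col3a1 of 6905 and 14460. Of the 10 tested, 8 rose in tSema4B cells without stimulation and 9 after NE, against 5.64% and 9.79% of all tested genes, and 0 fell. With NE 1 of the 10 rose (Ly6a) and 4 fell in each line, with medians of -0.23 in vector and 0.004 in tSema4B cells. The 9 brown adipocyte markers summed to 216 to 238, 46.5 to 79.4, 443 to 459 and 107 to 136. With NE 1 of the 6 tested, Ucp1, rose and 0 fell in each line. Its mean went from 12.1 to 276 in vector and from 0 to 62.9 in tSema4B cells. The median log2 fold change of the 6 with NE was -0.14 in vector and 0.11 in tSema4B cells. Lists for macrophages, endothelium and skeletal muscle summed to at most 59.6 normalized read counts in any library, and 2, 2 and 3 of the 6 genes of these lists had no read in any library. The part of the adipocyte and preadipocyte markers in the results on tSema4B was not tested, and in these bulk samples fewer adipocytes and less RNA per adipocyte cannot be told apart.

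Levels between genes were compared per kilobase of exon. In unstimulated vector cells Scd1 was the highest member, at 957 ± 163 normalized read counts per kilobase (SD, n = 3), followed by Scd2 at 449 ± 56.9, Acly at 199 ± 29.8 and Srebf1 at 106 ± 5.45, with no overlap between neighbours in that order. Fasn (55.5 ± 2.96) and Thrsp (52.1 ± 8.41) overlapped, as did Elovl6 (15.6 ± 1.47) and Mlxipl (14.1 ± 1.49). Acaca (6.67 ± 1.78) and Acacb (2.69 ± 0.164) closed the order. In unstimulated tSema4B cells Scd2 (406 ± 58.0) and Scd1 (393 ± 47.0) overlapped at the top of the order, Mlxipl (1.37 ± 0.218) and Acacb (0.795 ± 0.572) overlapped at the bottom, and Thrsp (12.6 ± 2.45) lay below Elovl6 (20.8 ± 2.29).

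**Figure D1:**
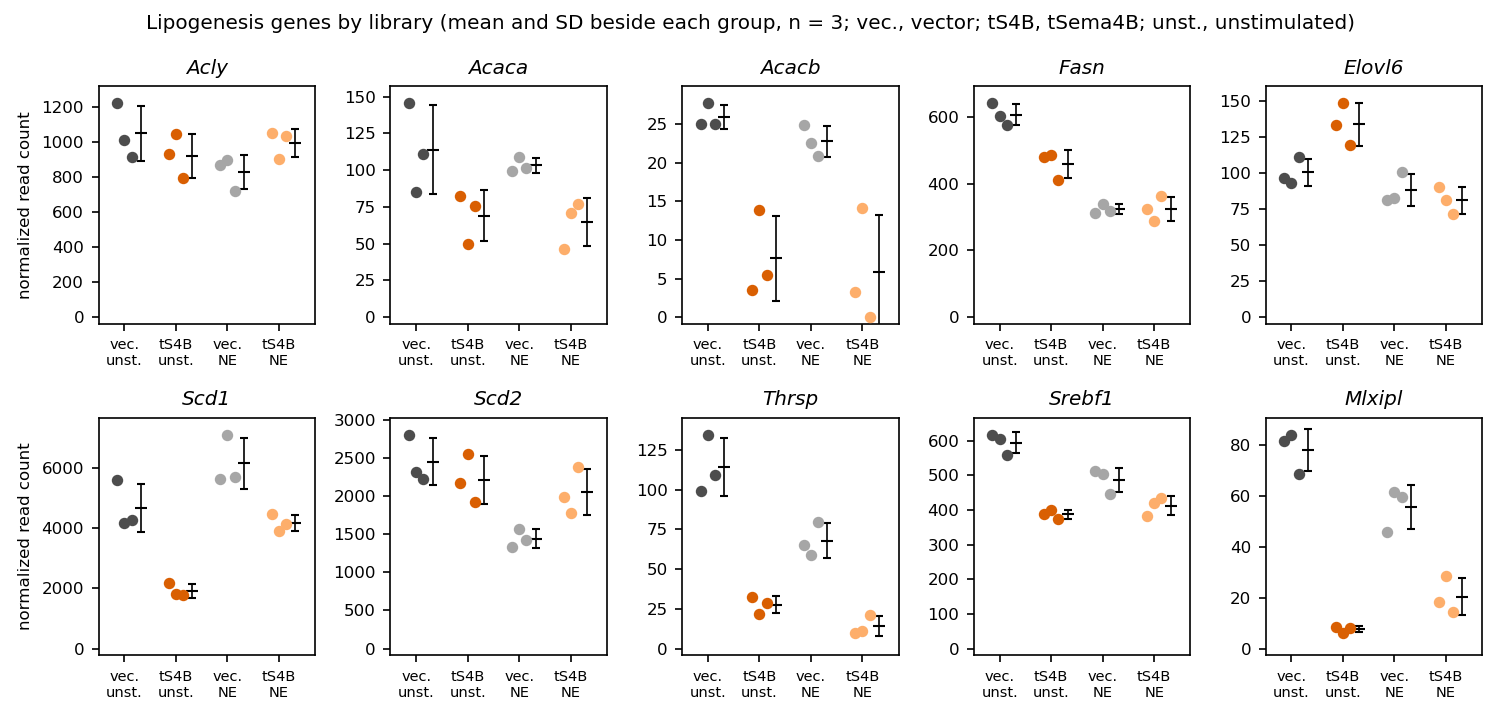
Normalized read counts (vertical axes, each from 0) of the 10 lipogenesis genes in the 12 libraries, as points for the 3 libraries of each group with the mean and SD beside them. Mlxipl, Thrsp and Acacb stand lowest in the tSema4B groups, Scd1 is lowest in unstimulated tSema4B cells (1767 to 2186), and Fasn in NE-treated cells of both lines lies between 288 and 362.

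The first comparison asked how tSema4B expression changed lipogenic transcripts in differentiated cells without stimulation. Mlxipl was 10.3-fold lower in tSema4B than in vector cells, Thrsp 4.14-fold and Scd1 2.44-fold lower, and Srebf1 and Fasn fell less. Acly and Scd2 overlapped between the lines. Of the 10 members, 5 fell and 0 rose at an adjusted p of 0.05 or less, where 7.39% of all tested genes fell and 5.64% rose. With a change of 1 or more on the log2 scale as a further condition, 3 were called lower (Mlxipl, Thrsp and Scd1) and 0 higher, against 2.71% and 1.11% of all tested genes. The groups did not overlap for 8 of the 10, against 29.4% of all genes, and the median log2 fold change of the members was -0.66 against -0.00 over all genes.

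After NE the same lines were compared again. Thrsp, Acacb, Mlxipl, Acaca and Scd1 were lower in tSema4B than in vector cells and Scd2 was higher. Fasn overlapped between the lines, with means of 323 in vector and 325 in tSema4B cells. At the adjusted p alone 5 members fell and 1 rose, where 11.2% of all tested genes fell and 9.79% rose. With the fold condition 3 were called lower (Thrsp, Acacb and Mlxipl) and 0 higher, against 3.73% and 2.03% of all genes. The groups did not overlap for 8 of the 10, against 37.7% of all genes, and the members' median log2 fold change was -0.40 against -0.01.

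NE treatment was then compared with no stimulation within each line. In vector cells NE lowered Fasn and Scd2 and raised Scd1, each by less than the fold condition, so that 1 member rose and 2 fell by the adjusted p, against 6.82% and 4.78% of all tested genes. With the fold condition 0 members were called, against 1.66% of all genes called higher and 0.975% called lower, and 6 members had an unadjusted p under 0.05, against 23.9% of all genes. The groups did not overlap for 8 of the 10 members, against 33.3% of all genes. In tSema4B cells NE raised Scd1 2.17-fold and Mlxipl 2.69-fold and lowered Fasn and Elovl6, which made 2 higher and 2 lower, against 3.68% and 2.58% of all genes. With the fold condition 2 were called higher and 0 lower, against 1.31% and 0.758% of all genes. In the same comparison 2 of the 10 adipocyte markers were called higher, Cidec (1.16, adjusted p = 0.00116) and Lpl (1.03, adjusted p = 2.09e-08). Of 10 tested preadipocyte and fibroblast markers 1 was called higher (Ly6a, 1.07, adjusted p = 6.6e-04) and 4 fell, by less than the fold condition. Of 2 tested macrophage markers 1 was called higher (Csf1r, 3.00, adjusted p = 0.0119), from at most 19 reads. The part of these markers in the rise of Scd1 and Mlxipl was not tested. The groups did not overlap for 5 of the 10 members, against 20.7% of all genes. Both NE comparisons share a library set with the comparisons of the lines, so their values are given side by side below, member by member.

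**Figure D2:**
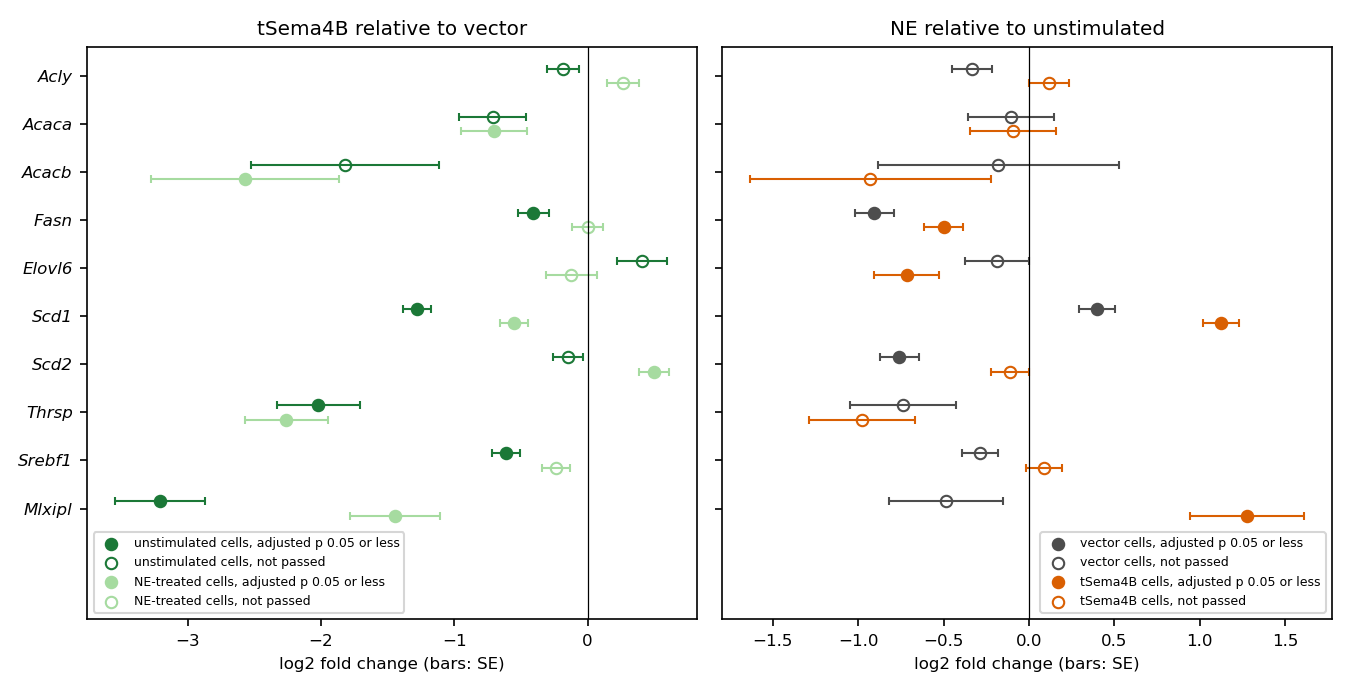
Log2 fold changes (horizontal axis, bars give the SE) of the 10 genes for tSema4B relative to vector on the left and for NE relative to unstimulated on the right, with filled points at an adjusted p of 0.05 or less. Mlxipl lies at -3.21 in unstimulated and -1.44 in NE-treated cells on the left, and on the right at -0.49 in vector and 1.28 in tSema4B cells.

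Mlxipl (chr5:135089890-135138382, GRCm38) encodes ChREBP, which responds to glucose metabolites. Unstimulated vector libraries held 81.5, 84.1 and 68.6 normalized read counts and unstimulated tSema4B libraries 8.34, 6.19 and 8.21, the latter from 4 to 7 reads. After NE the vector libraries held 45.7, 61.6 and 59.6 and the tSema4B libraries 18.2, 28.4 and 14.5. Every tSema4B library was below every vector library in its condition, and the NE-treated groups lay between the unstimulated ones. The log2 fold change of tSema4B against vector was -3.21 (SE 0.336, adjusted p = 4.08e-07) without stimulation and -1.44 (SE 0.336, adjusted p = 0.00356) after NE. NE changed Mlxipl by -0.49 on the log2 scale in vector cells (adjusted p = 0.411) and by 1.28 in tSema4B cells (adjusted p = 0.0238). The call in tSema4B cells was lost without tSema4B unstimulated replicate 2 (1.15, adjusted p = 0.0629) and without tSema4B NE replicate 2 (1.02, adjusted p = 0.110), and under 4 other settings with an adjusted p of up to 0.248. Among these, a pseudocount of 10 gave 0.77 (adjusted p = 0.0640). That pseudocount gave -2.32 for tSema4B against vector without stimulation (adjusted p = 1.68e-07).

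Srebf1 (chr11:60199089-60222581) encodes SREBP1, and 109 of its exon bases are shared with Rai1 on the opposite strand, which had at most 75 reads in a library. Unstimulated libraries held 618, 606 and 560 normalized read counts in vector and 390, 401 and 374 in tSema4B cells. After NE they held 512, 504 and 448 in vector and 382, 421 and 436 in tSema4B cells. Srebf1 was the least variable member within groups in unstimulated tSema4B cells, with a coefficient of variation of 3.49%. The decrease in unstimulated tSema4B cells was -0.61 on the log2 scale (SE 0.104, adjusted p = 2.31e-04). After NE the difference between the lines was -0.24 (SE 0.104, adjusted p = 0.108), with no overlap between the groups. NE gave -0.29 in vector cells (adjusted p = 0.0800) and 0.09 in tSema4B cells (adjusted p = 0.707). The difference in vector cells passed under 4 of 18 alternatives, namely equal totals over all genes (adjusted p = 0.0425), quantile normalization (adjusted p = 0.0244), DESeq2 (adjusted p = 0.0377) and a fit of only the 6 libraries compared (adjusted p = 0.0477). The difference between the lines after NE passed with equal totals over nuclear genes (adjusted p = 0.0485).

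Thrsp (chr7:97412938-97417730) encodes Spot14, a nuclear protein induced by thyroid hormone and carbohydrate feeding in lipogenic tissues. Its libraries held 98.8, 135 and 109 normalized read counts in unstimulated vector and 32.2, 21.7 and 28.8 in unstimulated tSema4B cells. After NE they held 65.2, 58.7 and 79.9 in vector and 9.65, 11.4 and 21.1 in tSema4B cells. All 4 groups were separate from each other, with unstimulated vector highest and NE-treated tSema4B lowest, at 9 to 16 reads. In tSema4B cells Thrsp changed by -2.02 on the log2 scale without stimulation (SE 0.311, adjusted p = 7.61e-05) and by -2.26 after NE (SE 0.311, adjusted p = 1.61e-05). The NE difference was -0.74 in vector cells (adjusted p = 0.141) and -0.98 in tSema4B cells (adjusted p = 0.0645). The first passed in edgeR (adjusted p = 0.0482), in DESeq2 (adjusted p = 0.0330) and in a fit of only the 6 libraries compared (adjusted p = 0.0121), and the second without tSema4B NE replicate 3 (-1.30, adjusted p = 0.0141).

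Acly (chr11:100476353-100528000), the ATP citrate lyase, supplies cytosolic acetyl-CoA. It held 1223, 1015 and 914 normalized read counts in unstimulated vector and 930, 1046 and 794 in unstimulated tSema4B libraries. After NE the counts were 871, 899 and 721 in vector and 1053, 903 and 1033 in tSema4B libraries. Acly passed no comparison in limma with the settings used throughout. The difference between the lines was -0.18 without stimulation (SE 0.118, adjusted p = 0.348), with overlapping groups, and 0.27 after NE (SE 0.118, adjusted p = 0.116), with every tSema4B library above every vector library. NE gave -0.34 in vector cells (adjusted p = 0.0710) and 0.12 in tSema4B cells (adjusted p = 0.651). The NE difference in vector cells passed under 9 of 18 alternatives, among them DESeq2 (adjusted p = 0.0443), quantile normalization (adjusted p = 0.0184) and the omission of vector unstimulated replicate 3 (adjusted p = 0.0402). The difference between the lines after NE passed under 3 of 18, with equal totals over all genes (adjusted p = 0.0312), quantile normalization (adjusted p = 0.0397) and thinned reads (adjusted p = 0.0497).

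Acaca (chr11:84129672-84401651) encodes the cytosolic carboxylase that makes malonyl-CoA for synthesis. Unstimulated libraries held 146, 84.9 and 111 normalized read counts in vector and 82.2, 49.5 and 75.3 in tSema4B cells. After NE they held 99.4, 109 and 102 in vector and 46.1, 71.0 and 76.6 in tSema4B cells. The vector libraries were above the tSema4B libraries in both conditions. The difference was -0.71 without stimulation (SE 0.250, adjusted p = 0.0633) and -0.70 after NE (SE 0.250, adjusted p = 0.0490). The second passed only narrowly and did not pass under 10 of 18 alternatives, among them the omission of any vector NE library (adjusted p = 0.0965 without replicate 1, 0.136 without replicate 2 and 0.111 without replicate 3), of tSema4B NE replicate 1 (-0.48, adjusted p = 0.206) or of replicate 2 (adjusted p = 0.0568). With the replicate number as a block its adjusted p was 0.0559. The first comparison passed without vector unstimulated replicate 2 (-0.90, adjusted p = 0.0408) and with equal totals over nuclear genes (-0.80, adjusted p = 0.0351). With single libraries left out its value ranged from -0.90 to -0.49. NE differences were -0.11 in vector cells (adjusted p = 0.858) and -0.09 in tSema4B cells (adjusted p = 0.882).

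Acacb (chr5:114146535-114250761) encodes the mitochondrial carboxylase whose malonyl-CoA inhibits fatty acid entry into mitochondria. It had the lowest mean per kilobase of the members in every group. Vector libraries held 24.98, 27.8 and 25.1 normalized read counts without stimulation and 24.9, 22.5 and 21.0 after NE. In tSema4B cells they held 3.58, 13.9 and 5.48 without stimulation, from 3 to 9 reads, and 3.22, 14.2 and 0 after NE, from 0 to 15 reads. Every tSema4B library was below every vector library. The log2 fold change was -1.82 without stimulation (SE 0.705, adjusted p = 0.0958) and -2.57 after NE (SE 0.705, adjusted p = 0.0118). The value after NE depended on the method, at -1.85 in edgeR, -1.89 in DESeq2, -1.15 with a pseudocount of 10 and -2.95 with a pseudocount of 0.5, and the ratio of the group means was 3.92. The second comparison was lost without tSema4B NE replicate 3, the library with 0 reads (-1.57, adjusted p = 0.0712), and the first passed under 3 alternatives, among them DESeq2 (adjusted p = 0.0420). NE differences were -0.18 in vector cells (adjusted p = 0.919) and -0.93 in tSema4B cells (adjusted p = 0.509).

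Fasn (chr11:120805846-120824547) encodes fatty acid synthase. Unstimulated libraries held 642, 604 and 577 normalized read counts in vector and 480, 486 and 411 in tSema4B cells. After NE they held 312, 340 and 318 in vector and 324, 288 and 362 in tSema4B cells. The unstimulated groups were separate, and the NE-treated groups overlapped with means of 323 ± 14.8 and 325 ± 37.1 (SD, n = 3). Fasn was lower in unstimulated tSema4B cells by -0.41 on the log2 scale (SE 0.114, adjusted p = 0.0196), which was lost without vector unstimulated replicate 1 (adjusted p = 0.0945), vector unstimulated replicate 2 (adjusted p = 0.0584) or tSema4B unstimulated replicate 3 (adjusted p = 0.0897). After NE the difference was -0.00 (SE 0.114, adjusted p = 1.00), and its sign turned under 3 settings and the omission of some libraries. NE lowered Fasn by -0.91 in vector cells (SE 0.114, adjusted p = 1.25e-05), the largest NE decrease among the members in that line, and by -0.50 in tSema4B cells (adjusted p = 0.00876). The latter was lost without tSema4B NE replicate 2 (-0.42, adjusted p = 0.0538) and in a fit of only the 6 libraries compared (adjusted p = 0.0586).

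Elovl6 (chr3:129532355-129638495) encodes the elongase that takes palmitate to stearate. It held 96.7, 93.3 and 111 normalized read counts in unstimulated vector and 134, 149 and 119 in unstimulated tSema4B libraries. After NE the counts were 81.3, 82.4 and 101 in vector and 90.1, 81.4 and 71.4 in tSema4B libraries. Elovl6 was the only member with a higher mean in unstimulated tSema4B than in vector cells. That difference was 0.41 (SE 0.189, adjusted p = 0.171), and the difference after NE was -0.12 (SE 0.189, adjusted p = 0.703). NE gave -0.19 in vector cells (adjusted p = 0.611) and lowered Elovl6 by -0.72 in tSema4B cells (SE 0.189, adjusted p = 0.0241). That decrease did not pass without tSema4B unstimulated replicate 1 (adjusted p = 0.0617), tSema4B unstimulated replicate 2 (adjusted p = 0.0857), tSema4B NE replicate 2 (adjusted p = 0.0538) or tSema4B NE replicate 3 (adjusted p = 0.0846), nor in a fit of only the 6 libraries compared (adjusted p = 0.0934).

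Scd1 (chr19:44394455-44407879) encodes the main adipose stearoyl-CoA desaturase. Unstimulated libraries held 5599, 4162 and 4283 normalized read counts in vector and 2186, 1811 and 1767 in tSema4B cells. After NE they held 5645, 7115 and 5704 in vector and 4459, 3910 and 4157 in tSema4B cells. Unstimulated tSema4B libraries were the lowest, and NE-treated tSema4B libraries overlapped the unstimulated vector ones. Scd1 fell in tSema4B cells by 1.28 on the log2 scale without stimulation (SE 0.106, adjusted p = 1.49e-08) and by 0.55 after NE (SE 0.106, adjusted p = 6.79e-04). NE raised Scd1 by 1.12 in tSema4B cells (SE 0.106, adjusted p = 3.51e-07) and by 0.40 in vector cells (SE 0.106, adjusted p = 0.0163). The increase in vector cells was lost without vector unstimulated replicate 2 (adjusted p = 0.106), vector unstimulated replicate 3 (adjusted p = 0.0837) or vector NE replicate 2 (0.29, adjusted p = 0.117), and with no filter on low counts (adjusted p = 0.0651).

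Scd2 (chr19:44293674-44306864) encodes a second desaturase, on the same chromosome as Scd1. Because how reads shared between the Scd paralogs were counted is not given in the sources used here, the split between them is uncertain. Unstimulated libraries held 2807, 2317 and 2231 normalized read counts in vector and 2167, 2554 and 1926 in tSema4B cells. After NE they held 1328, 1575 and 1429 in vector and 1995, 1780 and 2384 in tSema4B cells. NE-treated vector libraries were below all the others. The lines differed by -0.15 without stimulation (SE 0.112, adjusted p = 0.437), and after NE Scd2 was higher in tSema4B cells by 0.50 (SE 0.112, adjusted p = 0.00262). NE lowered it in vector cells by -0.76 (SE 0.112, adjusted p = 8.97e-05), and gave -0.11 in tSema4B cells (adjusted p = 0.647).

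The interaction of tSema4B and NE asked whether the NE response differed between the lines. In limma 0 of the 10 members passed by the adjusted p, against 0.025% of all genes, and 6 had an unadjusted p under 0.05 (Fasn, Acly, Scd1, Scd2, Srebf1 and Mlxipl), against 10.2%. The log2 interaction was 0.72 for Scd1 (SE 0.150, adjusted p = 0.113), 0.65 for Scd2 (SE 0.158, adjusted p = 0.137) and 1.76 for Mlxipl (SE 0.475, adjusted p = 0.170). edgeR also passed 0 members. DESeq2 passed Scd1 (0.72, adjusted p = 0.00348) and Scd2 (0.65, adjusted p = 0.0132), where it passed 101 genes in all against 3 for limma and 4 for edgeR. Scd2 also passed in limma without tSema4B unstimulated replicate 2 (0.76, adjusted p = 0.0428).

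The balance between the desaturases differed between groups. The ratio of Scd1 to Scd2 normalized read counts was 1.80 to 2.00 in unstimulated vector, 0.709 to 1.01 in unstimulated tSema4B, 3.99 to 4.52 in NE-treated vector and 1.74 to 2.24 in NE-treated tSema4B libraries. NE-treated vector libraries had the highest ratios of Scd1 to Scd2 and unstimulated tSema4B libraries the lowest, while the other groups overlapped. Scd1 made up 45.6 to 49.4% of the summed counts of the 10 members in unstimulated vector, 27.7 to 34.1% in unstimulated tSema4B, 62.8 to 66.1% in NE-treated vector and 48.6 to 53.2% in NE-treated tSema4B libraries. The sum itself was 9818 ± 1317, 6153 ± 560.9, 9578 ± 1030 and 8148 ± 560.1 normalized read counts in the same order (SD, n = 3). For the factors, Srebf1 counts were 7.21 to 8.16 times those of Mlxipl in unstimulated vector and 45.5 to 64.8 times in unstimulated tSema4B libraries. After NE that ratio was 7.52 to 11.2 in vector and 14.8 to 30 in tSema4B libraries. The ratios are descriptions of values tested above gene by gene and were not tested themselves.

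**Figure D3:**
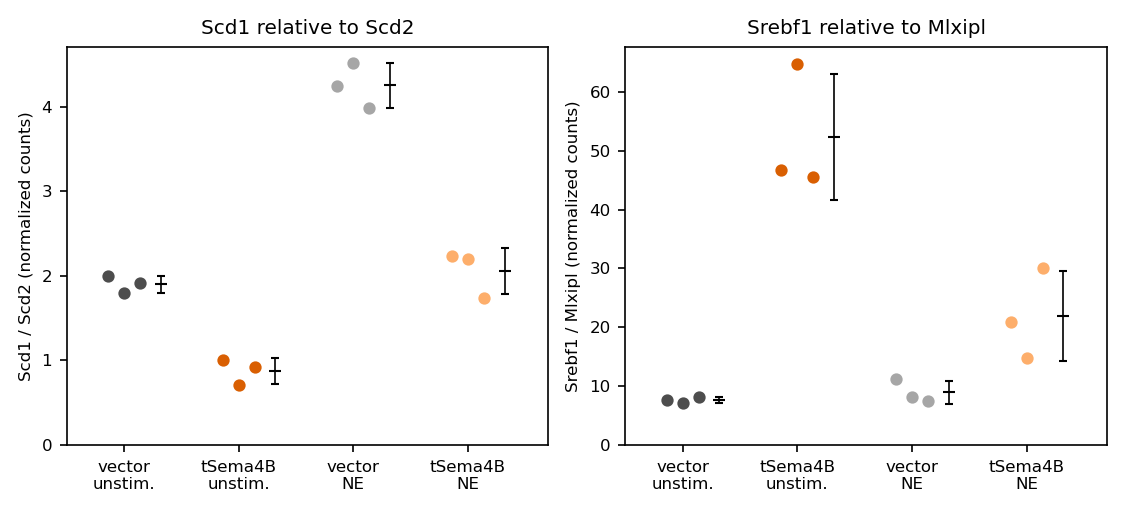
Ratio of normalized read counts of Scd1 to Scd2 (left) and of Srebf1 to Mlxipl (right) in each library, with the mean and SD of 3 libraries beside each group and both axes from 0. The left ratio is lowest in unstimulated tSema4B (0.709 to 1.01) and highest in NE-treated vector libraries (3.99 to 4.52), and the right one is highest in unstimulated tSema4B libraries (45.5 to 64.8).

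Genes around the pathway were examined as 9 lists with 99 genes, of which 93 were tested. Counts of the lists are set beside the shares of all tested genes, of which 5.64% rose and 7.39% fell in unstimulated tSema4B cells and 9.79% rose and 11.2% fell after NE. All 9 tested genes of acetyl-CoA and citrate supply fell in unstimulated tSema4B cells and 8 of 9 after NE, with 5 called lower in each condition, against 2.71% and 3.73% of all genes, and median log2 fold changes of -1.09 and -1.30. They included the mitochondrial pyruvate carrier Mpc1 (-1.19, adjusted p = 0.00195 without stimulation), the acetyl-CoA synthetase Acss2 (-1.45, adjusted p = 0.00171) and the pyruvate dehydrogenase kinase Pdk4 (-1.33, adjusted p = 1.66e-08), which opposes the use of pyruvate and so does not act as a supplier. Of 5 NADPH genes, 5 fell without stimulation and 3 after NE. Among them Idh1, the cytosolic isocitrate dehydrogenase, fell by 1.06 (adjusted p = 7.93e-09) and the malic enzyme Me1 by 0.75 (adjusted p = 4.23e-04).

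The elongation and desaturation list was mixed. Of its 14 tested genes 1 rose and 3 fell in unstimulated tSema4B cells, and 3 rose and 5 fell after NE, its rising share without stimulation being near that of all genes. The brown fat elongase Elovl3 fell by 2.86 without stimulation (adjusted p = 3.81e-05) and by 1.90 after NE (adjusted p = 0.00222). NE raised Elovl3 by 2.03 in tSema4B cells (adjusted p = 0.00376), from at most 8 reads in an unstimulated library. In vector cells NE gave 1.06 (adjusted p = 0.108), and the interaction did not pass (0.96, adjusted p = 0.617). The reductase Hsd17b12 fell by 1.00 (adjusted p = 2.72e-08), whereas the desaturase Fads1 rose by 0.45 (adjusted p = 0.00903). Scd3 is a paralog of the members Scd1 and Scd2 with the same doubt on shared reads. After NE it was lower in tSema4B than in vector cells (-2.08, adjusted p = 0.0385), from at most 8 reads in a tSema4B library. Without stimulation this difference was -1.41 (adjusted p = 0.2085). Of the 12 tested genes for malonyl-CoA handling and AMPK, 0 passed in limma in any of the 4 comparisons. The count with an unadjusted p under 0.05 was 1 for each comparison of the lines, 0 for NE in vector cells and 2 for NE in tSema4B cells, where 26.1% of all genes without stimulation and 32.9% after NE for the lines, 23.9% for NE in vector and 19.9% for NE in tSema4B cells were under it.

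Sterol and carbohydrate sensing lists gave different counts. Of 22 cholesterol genes known as SREBP2 targets, 3 rose and 0 fell in unstimulated tSema4B cells, and 11 rose and 0 fell after NE. The squalene epoxidase Sqle was at 0.42 without stimulation (adjusted p = 0.0610) and rose by 0.76 after NE (adjusted p = 6.62e-04). In vector cells NE lowered 10 of the 22 and raised 0, against 4.78% and 6.82% of all genes, with the kinase Mvk at -1.03 (adjusted p = 0.00602), and in tSema4B cells 0 passed in limma, against 3.68% of all genes higher and 2.58% lower, and 1 had an unadjusted p under 0.05. For the difference between these responses, the interaction, 0 of the 22 passed in limma, against 0.025% of all genes. An unadjusted p under 0.05 was found for 5, against 10.2% of all genes. The median was 0.22, against 0.0076 over all genes. Among 7 genes of SREBP processing, 2 rose and 1 fell in unstimulated tSema4B cells, and 2 rose and 0 fell after NE. The protease gene Mbtps1 rose by 0.46 without stimulation (adjusted p = 0.00568) and by 0.38 after NE (adjusted p = 0.0135). Srebf2 rose in tSema4B cells by 0.34 without stimulation (adjusted p = 0.0395) and by 0.66 after NE (adjusted p = 1.13e-04), and Insig1, which retains SREBPs in the endoplasmic reticulum, fell by 0.48 without stimulation (adjusted p = 0.0169). Of 8 partners of ChREBP and LXR, 2 fell in each comparison of the lines. The LXR gene Nr1h3 fell by 1.77 (adjusted p = 0.00803) and by 2.11 after NE (adjusted p = 0.00137), whereas the ChREBP partner Mlx did not pass (-0.20, adjusted p = 0.493, and -0.35, adjusted p = 0.145). Of 5 tested targets of ChREBP and LXR outside lipogenesis, 2 fell and 0 rose in each comparison of the lines. The LXR target Abca1 fell by 0.64 (adjusted p = 0.0140) and by 1.00 after NE (adjusted p = 1.95e-04). The LXR target Abcg1 fell by 2.34 (adjusted p = 1.09e-05) and by 2.75 after NE (adjusted p = 1.24e-06), and Txnip, a ChREBP target, stood at -0.09 (adjusted p = 0.579) and 0.00 (adjusted p = 0.980). In the insulin and glucose list 2 of 11 fell without stimulation, the glucose transporter Slc2a4 (-2.57, adjusted p = 3.50e-05) and the hexokinase Hk2 (-2.43, adjusted p = 0.00198), and 5 of 11 after NE.

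**Figure D4:**
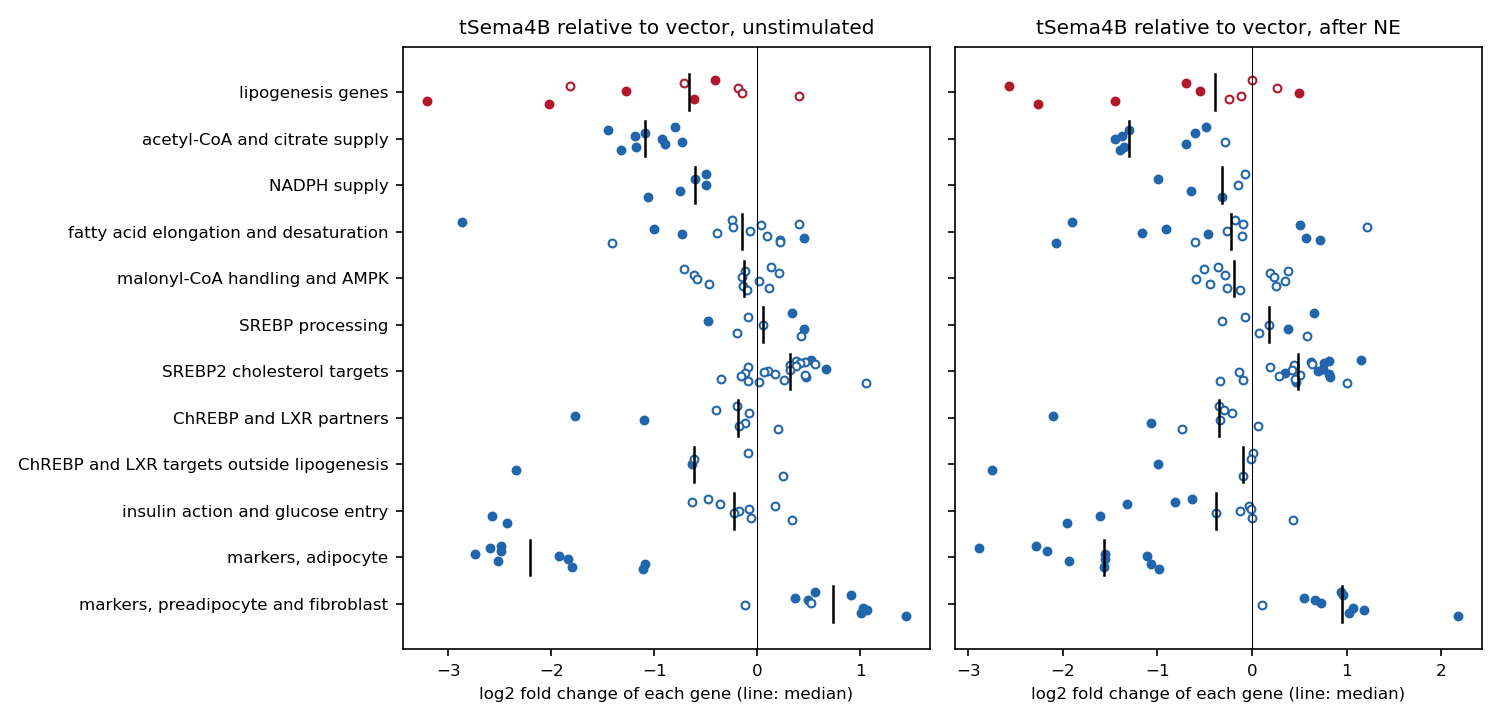
Log2 fold change of every tested gene (points, filled at an adjusted p of 0.05 or less) for tSema4B relative to vector without stimulation (left) and after NE (right), by list, with the median of each list as a vertical line. The 10 lipogenesis genes spread from -3.21 to 0.41 on the left, the acetyl-CoA and citrate list lies below 0 in both plots, and its median is -1.09 on the left and -1.30 on the right.

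The genes whose pattern over the 12 libraries was most like each member were found by the root mean square difference of centred log2 values. Nearest to Mlxipl were the lipid droplet gene Cidec (0.288), Ankef1 (0.383) and Cidea (0.383), against a median of 1.33 over all tested genes. Srebf1 had the smallest distance of any member, to Cyb5b at 0.0433 against a median of 0.430. The distance depends on a gene's own range, which was 0.724 on the log2 scale for Srebf1 and 3.565 for Mlxipl. Distances are therefore not comparable between members, and the nearest of all genes lies below the median by construction. Nearest to Scd1 was Dgat1 (0.201 against 0.732), which completes triglyceride synthesis, and nearest to Fasn was Cav1 (0.129 against 0.529). Scd2 lay closest to Gm5873 (0.0993 against 0.477), with Acat2, a gene of the cholesterol list, at 0.141. Among the genes near Thrsp were S100g (0.361 against 1.24) and Cdo1 (0.424), and Acly lay closest to Abcd3 (0.125 against 0.401). For Acacb the nearest was Fam57b (0.463 against 1.49) and the desaturase Scd3 followed at 0.530. No member was among the 3 nearest genes of another. The nearest other member of Mlxipl was Scd1 at 0.818 and that of Fasn was Scd2 at 0.251.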

How the data were processed

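RNA was measured in 12 libraries in 4 groups of 3, assigned from the labels. cDNA was made by SMART-Seq2 and sequenced as single-end Nextera XT libraries. After a screen for reads of foreign species, the authors used STAR 2.7.9a for alignment to the mouse genome (mm10, GRCm38.p4), htseq-count for counting and DESeq2 for normalization. The deposited signal is therefore a normalized read count, and 2000780 to 5409583 reads per library stand behind it. Whole reads were recovered within a tolerance of 0.01. Which annotation and strand setting were used, and how multi-mapping reads were treated, is not given in the sources used here.

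The main test was limma 3.58.1 in R 4.3.3 on log2(normalized count + 1), with a variance trend on abundance, one model of the 4 groups and the 11998 genes that reached 10 normalized counts in 3 or more libraries. Two-sided p-values were adjusted over all tested genes by Benjamini-Hochberg, and fold changes of low genes depend on the pseudocount. "Rose", "fell", "raised", "lowered" and "passed" mean an adjusted p of 0.05 or less, and "called" also a change of 1 or more on the log2 scale, for the interaction the adjusted p alone. Fold values are ratios of group means. Alternatives were other pseudocounts, filters and scalings, edgeR 4.0.16 and DESeq2 1.42.0 on whole reads, thinning to 2000780 reads, fits of only the 6 libraries compared, a block on the replicate number and each library left out. The method was tested on simulated data for a single comparison, with large changes in genes above the lowest counts. Genes as low as Acacb, small changes and the interaction were not covered by it.

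The members and lists were chosen with earlier results of these data known. Genes named are the members, Sema4b, cell type markers, from each list up to 3 called genes per comparison and direction with the largest fold change, and the 3 nearest genes of each member. Other list genes are named as examples after their values were seen. Some genes that this rule names are not reported here. Gene positions and exon lengths are from GENCODE M21 on GRCm38, and promoter windows from RefSeq on GRCm38.p6.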

Additional observations from a re-analysis of the deposited data

Results flagged for a closer look

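Mlxipl stood out because every NE-treated vector library was below every unstimulated vector library, while every NE-treated tSema4B library was above every unstimulated tSema4B library. Groups did not overlap for 33.3% of all genes in vector and 20.7% in tSema4B cells, and the share with opposite directions was not counted. The response did not pass in vector cells (-0.49, adjusted p = 0.411). In tSema4B cells it passed (1.28, adjusted p = 0.0238) but not under 6 of 18 alternatives. The difference between the 2 responses was 1.76 on the log2 scale (SE 0.475), and it did not pass in limma (adjusted p = 0.170) or, over the alternatives run, with an adjusted p between 0.121 and 0.384. The unstimulated tSema4B libraries held 4 to 7 reads of the gene.

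Idh1, the cytosolic isocitrate dehydrogenase that makes NADPH, stood out because its NE response differed between the lines by 0.74 on the log2 scale (SE 0.120, adjusted p = 0.0216 in limma). NE lowered it in vector cells (-0.56, adjusted p = 1.29e-04), and in tSema4B cells the value was 0.18 (adjusted p = 0.241). Of the 93 tested list genes 1 passed for the interaction, against 0.025% of all genes. Values of Idh1 under the alternatives are not reported here.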

How the results depend on the processing

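Scd1, Mlxipl and Thrsp in unstimulated cells, Mlxipl and Thrsp after NE in the comparison of the lines, and Scd1 for NE in tSema4B cells kept their call in each of the 18 alternatives run. By the adjusted p alone the members called were 5 without stimulation and 6 after NE for tSema4B against vector, 3 for NE in vector cells and 4 for NE in tSema4B cells. For NE in tSema4B cells the number fell to 1 with a pseudocount of 10, with no filter, with thinned reads and with only the 6 libraries compared, and lay between 1 and 2 with single libraries left out (1 without tSema4B unstimulated replicate 2 or tSema4B NE replicate 2). For the interaction it was 2 with DESeq2 and between 0 and 1 with single libraries left out (1 without tSema4B unstimulated replicate 2). The sign of Fasn between the lines after NE turned with a pseudocount of 10 (0.0001), with equal totals over all genes (0.0948) and with quantile normalization (0.0281), and ranged from -0.0818 to 0.0832 with single libraries left out. With single libraries left out, Acaca ranged from -0.2979 to 0.0871 for NE in vector cells and from -0.3141 to 0.1274 in tSema4B cells, Acacb for NE in tSema4B cells from -1.8914 to 0.0717, the interaction of Acaca from -0.2085 to 0.233 and that of Acacb from -1.7105 to 0.2527. The interaction of Acaca was -0.0124 with thinned reads and that of Thrsp 0.0087 with a pseudocount of 10. None of these values had passed the test, and the cause was not tested. Acacb did not pass a filter of 50 normalized counts and has no value there.

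Replicate numbers were shared between groups. Over 18 pairs of same-numbered libraries the correlation of deviations from the group means lay between -0.047 and 0.0282. These values are over all tested genes, so no pairing was seen there, and pairing in a part of the genes was not tested. With the replicate number as a block the number of members called stayed at 3 and 3 for the lines, 0 and 2 for NE and 0 for the interaction. Of single members, Acaca after NE no longer passed (adjusted p = 0.0559) and Acly for NE in vector cells passed (adjusted p = 0.0493).

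Depth limits the low members. Acacb, Mlxipl and Thrsp rested on 0 to 30 reads in tSema4B libraries, and the scalings moved the median of all genes by at most 0.0936 on the log2 scale (tSema4B against vector after NE, equal totals over all genes).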
